A study of Rattus norvegicus with 6 samples.

Results

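Transcripts of the gelatinases Mmp2 and Mmp9 and of the inhibitor Timp1 were followed in the esophagus of rats with and without a friction injury. The members are 3 of the 32623 genes in the count table, taken by Ensembl identifier as ENSRNOG00000016695 (Mmp2), ENSRNOG00000017539 (Mmp9) and ENSRNOG00000010208 (Timp1). The symbols come with the selection of these identifiers, because the table holds identifiers alone and the RefSeq gene table used here pairs 0 of them with a symbol. All animals were wild type male Sprague-Dawley rats, 8 to 10 weeks old by the housing description. The 3 control rats were untreated. In the 3 injured rats a customized 3D-printed device had been passed through the mouth to about 9 to 10 cm and moved back and forth for 8 to 10 cycles of about 3 to 5 seconds each. Full-thickness esophagus of each animal, collected on day 28, gave 1 library of polyadenylated RNA, and the libraries held 14181903 to 18376578 counts. The series presents this injury as a model of esophageal stricture. Since the tissue is the whole organ wall, a difference in a transcript can come from more cells of a type or from more RNA per cell, and these cannot be told apart. The markers that define esophageal and other cell types could not be checked, and neither could the other metalloproteinases, the other Timp genes, the activators and the matrix substrates, since their identifiers were not paired with symbols.

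Matrix metalloproteinases are zinc-dependent endopeptidases that are secreted as inactive precursors and cleave proteins of the extracellular matrix. Mmp2 (gelatinase A) and Mmp9 (gelatinase B) share repeats related to fibronectin type II modules, through which they bind gelatin, and both cleave denatured collagen and the type IV collagen of basement membranes. Mmp2 is made steadily by fibroblasts and other mesenchymal cells, whereas Mmp9 is typically inducible, is stored in neutrophil granules and is also made by macrophages and epithelial cells. Timp1 is a secreted protein that occupies the active site of metalloproteinases and also binds the Mmp9 precursor. Proteinase activity depends on secretion, activation and inhibition of the proteins, none of which is measured by transcript counts.

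The transcripts of all 3 genes were higher in every injured animal than in any control animal, but none of the differences passed an adjusted p of 0.05 in edgeR's quasi-likelihood test over all tested genes. Mmp2 stood at 3.16 times its control level and Timp1 at 2.25 times. Mmp9 was at or near 0 in all controls and also close to 0 in injured replicate 1, while it was clearly present in the other 2 injured animals. Groups that do not overlap in this direction were found in 13.5% of the 14481 genes tested and in 11.3% of the 20497 genes with any count, so this arrangement alone does not set the members apart. At an adjusted p under 0.05, edgeR called 0.711% of the tested genes higher and 0.642% lower in injured animals, and at an unadjusted p under 0.05 it called 9.98% of them higher. The unadjusted p-values of Mmp2 and Timp1 were under 0.05, as was that of Mmp9 in the fit without a filter, in which 8.12% of genes were higher at that level.

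**Figure D1:**
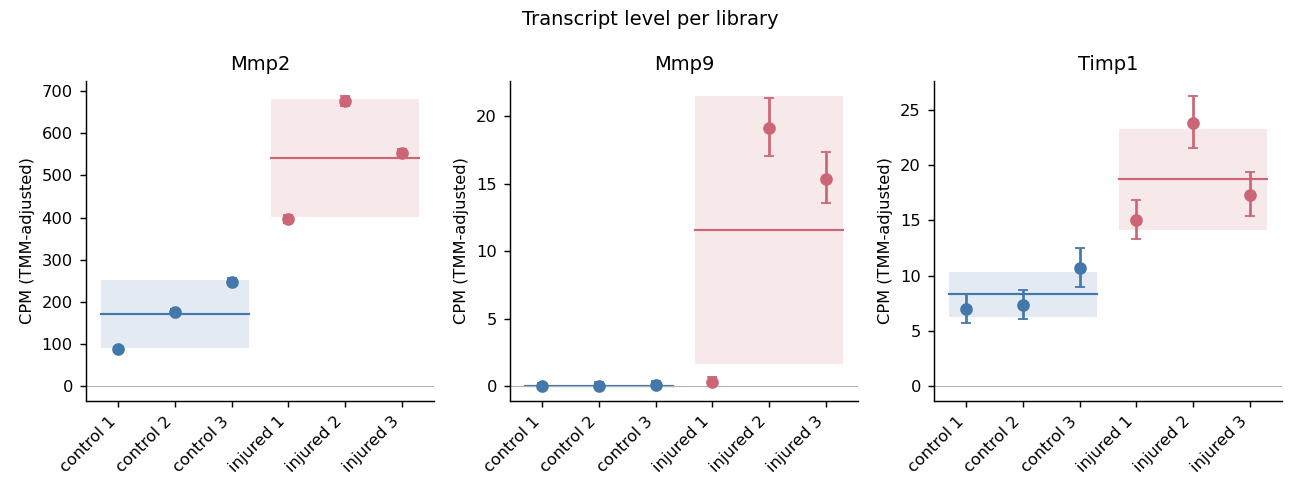
Level (CPM, counts scaled to library sizes adjusted by the trimmed mean of M-values) of Mmp2, Mmp9 and Timp1 in each of the 6 libraries. Points are libraries with exact Poisson 95% intervals, which cover counting error only; lines and shaded bands are the group mean and 1 SD (n = 3 each). In all 3 panels the injured libraries lie above the controls, and injured replicate 1 is the lowest injured library, at 0.320 CPM for Mmp9.

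Mmp2, the gelatinase of mesenchymal cells, was well covered in every library. It had 1479, 3165 and 3445 counts in control replicates 1, 2 and 3, and 7439, 11139 and 9427 counts in injured replicates 1, 2 and 3. Scaled to library size (CPM), these were 88.7, 177 and 248 CPM in the control group and 396, 677 and 552 CPM after injury. The lowest injured library was 1.59 times the highest control library. The controls spanned 2.80-fold, from replicate 1 up to replicate 3, which was wider than the 1.71-fold span of the injured animals.

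Mmp2 averaged 171 ± 80.0 CPM in the control group and 542 ± 140 CPM in the injured group (SD over 3 animals). The log2 fold change of 1.66 had a standard error of 0.38 (edgeR quasi-likelihood test, unadjusted p = 0.0037, adjusted p = 0.083). The median log2 fold change of all tested genes was -0.01. Of the 14481 tested genes, 339 had a larger log2 fold change and 648 a smaller p. Counting error was small beside the spread between animals, at 2.60% of the count or less in each library. The biological coefficient of variation fitted to Mmp2 was 0.340, against 0.233 for genes of like mean CPM.

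The call on Mmp2 differed between tests. With the replicate number as a block, which compares same-numbered control and injured libraries, the estimate was 1.75 (standard error 0.21). Mmp2 then passed (edgeR, adjusted p = 0.029), as did 1.98% of tested genes in this direction, but no label pairs these animals. Within the numbered pairs the log2 difference was 2.16, 1.94 and 1.15 for numbers 1, 2 and 3. DESeq2 also called Mmp2 higher (adjusted p = 0.00037), together with 5.32% of the tested genes. Mmp2 did not pass in the other 14 of 16 alternatives. Those included limma-voom (adjusted p = 0.089) and leaving out any single library. No setting tried put Mmp2 lower in injured animals, and the choice of scaling moved its log2 fold change only between 1.64 and 1.73.

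Timp1, the inhibitor, was counted less deeply. It had 116, 131 and 148 counts in control replicates 1, 2 and 3, and 282, 392 and 295 counts in injured replicates 1, 2 and 3. In CPM, the controls stood at 6.96, 7.32 and 10.7 and the injured animals at 15.02, 23.8 and 17.3. The lowest injured library was 1.41 times the highest control library, and the animals of a group lay within 1.53-fold of each other among controls and within 1.58-fold among injured animals. Each control count carries a Poisson error of 8.22% to 9.28%, so control replicates 1 and 2 were not distinguishable at this depth.

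Timp1 averaged 8.32 ± 2.05 CPM in the control group and 18.7 ± 4.56 CPM in the injured group (SD over 3 animals). The log2 fold change of 1.17 had a standard error of 0.25 (edgeR quasi-likelihood test, unadjusted p = 0.0024, adjusted p = 0.074). Although its fold change was smaller than that of Mmp2, its standard error and its p were smaller as well: 660 tested genes had a larger log2 fold change and 476 a smaller p. Its biological coefficient of variation was 0.24, close to the 0.261 of genes of like mean CPM. The replicate block did not change the call (log2 fold change 1.17, edgeR, adjusted p = 0.059), and DESeq2 called Timp1 higher (adjusted p = 0.0013). Of 16 alternatives, DESeq2 was the only 1 in which Timp1 passed. Within the numbered pairs the log2 difference was 1.11, 1.70 and 0.69.

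The RefSeq promoter table used here matched 1 of the 3 members by symbol, Timp1. The 250 bases before its annotated start in the GRCr8 assembly (chrX:3771123-3771372, minus strand) are shown because Timp1 is the inhibitor that both proteinase ratios are set against. The counts were made on the Rnor_6.0 build, so these positions cannot be laid over them. Motifs were searched on both strands, and capitals mark every match found.

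Timp1: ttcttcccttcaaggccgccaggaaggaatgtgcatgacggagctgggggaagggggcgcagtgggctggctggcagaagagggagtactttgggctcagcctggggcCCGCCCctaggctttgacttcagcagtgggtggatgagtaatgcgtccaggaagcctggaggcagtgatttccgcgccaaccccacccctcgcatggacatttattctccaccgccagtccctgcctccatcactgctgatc

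The capitals are 1 match to the Sp1 motif GGGCGG on the opposite strand, 137 to 142 bases before the start, a motif held by 30.5% of the 33469 promoters in the table over the same length. The AP-1 motif TGANTCA had 0 matches in this window and is present in 6.34% of promoters. The NF-kB consensus had 0 matches and is present in 3.54%. Only full matches were counted, and the window holds TGAGTAA, which differs from the AP-1 motif by 1 base. A count of 0 therefore does not show that a site is absent. The stretch is 61.2% G and C. These letters describe the reference sequence, and no binding was measured in these animals.

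Mmp9, the inducible gelatinase that neutrophils store, was almost undetected in the uninjured organ. It had 0, 1 and 1 counts in control replicates 1, 2 and 3, and 6, 314 and 262 counts in injured replicates 1, 2 and 3. In CPM, the controls stood at 0, 0.0559 and 0.0721 and the injured animals at 0.320, 19.1 and 15.3. The count of 0 in control replicate 1 has an exact Poisson 95% upper limit of 0.221 CPM. Injured replicate 1 lay above every control by its count, but its exact Poisson 95% interval of 0.117 to 0.696 CPM overlaps that of control replicate 3, which reaches 0.402 CPM, and these values cover counting error only.

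The injured animals therefore differed among themselves in Mmp9 far more than in the other members. The mean of injured replicates 2 and 3 was 53.8 times the level of injured replicate 1 for Mmp9, against 1.55 times for Mmp2 and 1.37 times for Timp1. Injured replicates 2 and 3 were close to each other, with replicate 2 at 1.24 times replicate 3 for Mmp9, 1.23 times for Mmp2 and 1.38 times for Timp1. Injured replicate 1 was the lowest injured library in all 3 members and in 38.0% of the tested genes. The size of the injury or scar in each animal is not given in the labels, and its part in this spread was not tested.

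The filter on low counts removed Mmp9 from the test, because it asks for about 0.588 CPM or more in 3 libraries and Mmp9 reached that in 2. Of the 6016 genes with counts that the filter removed, 2 had a total as high as the 584 counts of Mmp9 (Mmp9 included). Over all 20497 genes with a count, the fitted log2 fold change of Mmp9 was 7.89 (standard error 1.62, edgeR quasi-likelihood test without a filter, unadjusted p = 0.00115, adjusted p = 0.063). In that fit 15 genes had a larger log2 fold change and 374 a smaller p, and 0.673% of genes were called higher. With so few control counts the fitted value depends on the prior count. The ratio of summed counts uses none: scaled to library size, 582 counts in injured animals against 2 in controls differ by 269-fold (exact 95% counting interval 74.3 to 2230). That interval leaves out the spread between animals, which was 59.7-fold among the injured. Injured replicates 2 and 3 gave 314 and 262 of the 582 counts. The lowest injured library was 4.43 times the highest control library. Mmp9 averaged 0.0427 ± 0.0378 CPM in the control group and 11.6 ± 9.93 CPM in the injured group (SD over 3 animals).

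The call on Mmp9 turned on the test and on injured replicate 1. Without that animal the estimate was 8.46 (standard error 0.49), and Mmp9 passed (edgeR, adjusted p = 0.0027) along with 0.726% of the genes fitted. The replicate block gave a log2 fold change of 7.87 and a pass (edgeR, adjusted p = 0.00076), with 2.75% of the genes called higher. DESeq2 gave 8.13 and a pass (adjusted p = 1.75e-06), with 3.69% called higher. With bias-adjusted deviance in edgeR, an alternative that was not planned, Mmp9 passed narrowly (adjusted p = 0.046), with 0.688% called higher. In limma-voom the estimate was 6.07 (standard error 3.03), which did not pass (adjusted p = 0.35). Of 14 alternatives, Mmp9 passed in these 4 and not in the other 10. Those 10 included robust edgeR (adjusted p = 0.18), the other scalings and leaving out any other single library. The biological coefficient of variation fitted to Mmp9 was 0.931, against 0.326 for genes of like mean CPM.

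**Figure D2:**
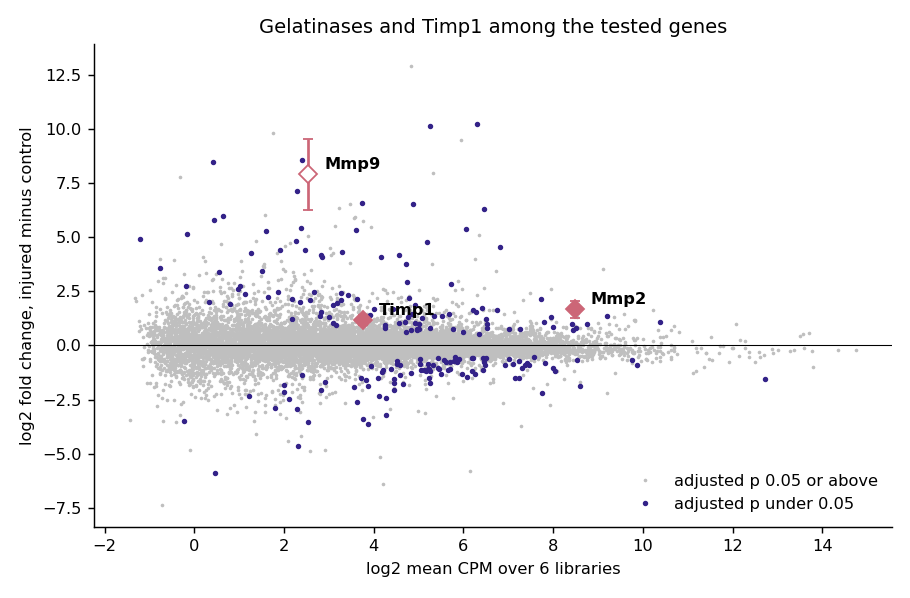
Log2 fold change, injured minus control, of 14481 tested genes (edgeR) against their log2 mean CPM over the 6 libraries. Dark points passed an adjusted p of 0.05; diamonds with standard error bars are the members, filled for Mmp2 (1.66) and Timp1 (1.17) and open for Mmp9 (7.89), which comes from the fit without a filter.

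The balance between a gelatinase and its inhibitor was followed as the ratio of their counts within a library, which does not depend on how libraries are scaled. Transcript lengths were not used, so a ratio is compared between libraries and says nothing of which transcript was more abundant. All 3 possible ratios were tested, each by a two-sided exact permutation test over the 6 libraries, in which 3 animals against 3 cannot give a p below 0.1.

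Mmp2 was higher relative to Timp1 in injured animals, by a margin that control replicate 1 largely set. There were 12.8, 24.2 and 23.3 counts of Mmp2 per count of Timp1 in control replicates 1, 2 and 3, and 26.4, 28.4 and 32.0 in injured replicates 1, 2 and 3. The ratios of the groups did not overlap, but the gap between control replicate 2 and injured replicate 1 was small: their exact 95% counting intervals were 20.3 to 29.0 and 23.4 to 29.8. How often ratios of other gene pairs separate the groups was not computed. The means were 20.1 ± 6.35 in controls and 28.9 ± 2.82 in injured animals (SD, n = 3 each).

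On the log2 scale the Mmp2 to Timp1 ratio was higher by 0.58 in injured animals, a factor of 1.49 (exact permutation p = 0.1, adjusted p = 0.1 over the 3 ratios). The ratio was higher in 3 of 3 numbered pairs, which any pairing gives when the groups do not overlap. Without control replicate 1 the difference was 0.28 (exact permutation p = 0.2), and leaving out any other library gave 0.51 to 0.74. The low ratio in control replicate 1 came with the lowest Mmp2 of all libraries, whereas its Timp1 was close to that of control replicate 2.

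Mmp9 relative to Timp1 separated injured replicates 2 and 3 from the other 4 libraries. The ratio was 0, 0.0076 and 0.0068 counts of Mmp9 per count of Timp1 in control replicates 1, 2 and 3, and 0.021, 0.801 and 0.888 in injured replicates 1, 2 and 3. The exact 95% counting interval of injured replicate 1, 0.0077 to 0.047, overlaps those of all controls, which reach 0.032 to 0.043. With 0.5 added to each count, the mean log2 ratio was -6.98 ± 0.77 in controls and -1.98 ± 3.00 in injured animals (SD, n = 3 each), a difference of 5.01 (exact permutation p = 0.1, adjusted p = 0.1). From the summed counts the ratio differed by 119-fold (exact 95% counting interval 32.4 to 994). Single injured animals moved the log2 difference, to 6.74 without replicate 1, 4.18 without replicate 2 and 4.10 without replicate 3.

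The ratio of the gelatinases to each other moved with Mmp9. There were 0, 0.00032 and 0.00029 counts of Mmp9 per count of Mmp2 in control replicates 1, 2 and 3, and 0.00081, 0.0282 and 0.0278 in injured replicates 1, 2 and 3. Injured replicates 2 and 3 were alike within counting error, with exact 95% intervals of 0.0251 to 0.0315 and 0.0245 to 0.0314. The log2 difference between the groups was 4.42 with 0.5 added to each count (exact permutation p = 0.1, adjusted p = 0.1), and 6.09, 3.58 and 3.59 without injured replicate 1, 2 or 3. From the summed counts this ratio differed by 84.1-fold (exact 95% counting interval 23.1 to 697).

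**Figure D3:**
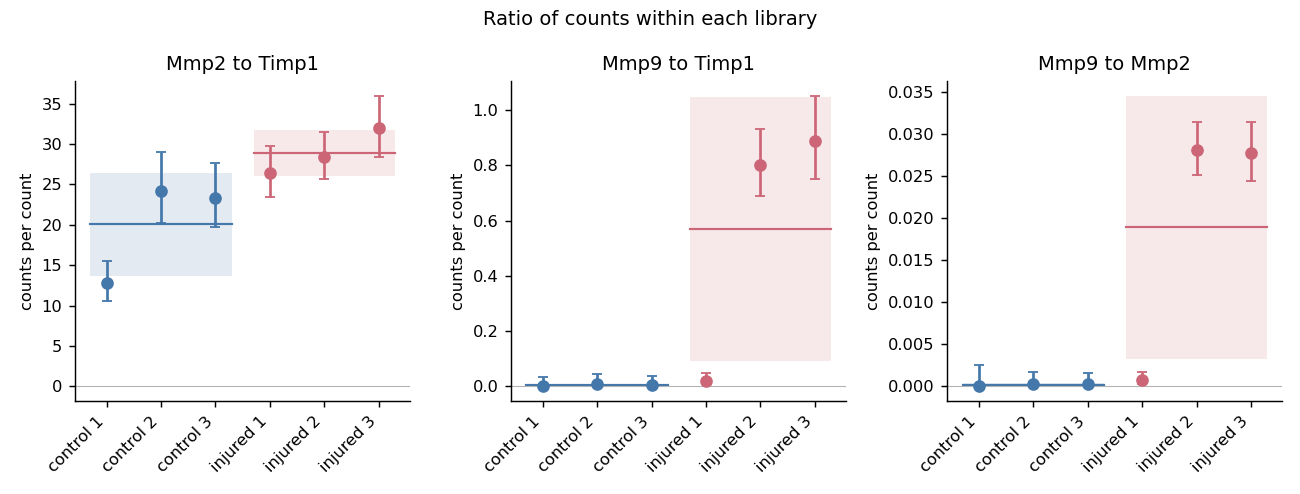
Counts of Mmp2 per count of Timp1, of Mmp9 per count of Timp1 and of Mmp9 per count of Mmp2 in each of the 6 libraries. Points carry exact binomial 95% intervals (counting error only), and lines and bands are the group mean and 1 SD (n = 3 each). Control replicate 1 lies low in the first panel at 12.8, and injured replicate 1 lies with the controls in the other panels.

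Across the libraries the centred levels of Mmp2 and Timp1 lay closer to each other than to those of Mmp9. Likeness was measured as the root mean square difference, over the 6 libraries, between log2 CPM values centred on each gene's own mean, which is a description of 6 values shared by all genes. It was 0.43 between Mmp2 and Timp1, 2.26 between Mmp2 and Mmp9 and 2.52 between Mmp9 and Timp1. The measure grows with the size of a change, so the 2 values with Mmp9 also reflect its larger fold change. Among the 13658 other tested genes with at least 1 CPM on average, the median difference from Mmp2 was 1.04, and Timp1 ranked 180th in likeness to Mmp2. In likeness to Mmp9, Timp1 ranked 506th among 13659 genes, whose median difference was 3.09. In both Mmp2 and Timp1, control replicate 1 was the lowest and control replicate 3 the highest control, and injured replicate 1 the lowest and injured replicate 2 the highest injured animal. Mmp9 had the same order in CPM, but control replicates 2 and 3 held 1 count each, so only library size ordered them. This order within both groups was found in 6.46% of the tested genes.

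The genes whose profiles were most like those of the members had no symbol here. The closest to Mmp2 was ENSRNOG00000051986, at a difference of 0.12, with 1.56, 3.57 and 5.19 CPM in the control group and 8.10, 11.7 and 9.49 CPM after injury. The 5 closest to Mmp2 lay within 0.16, and their log2 fold changes were 1.51 to 1.80 (edgeR, adjusted p from 0.083 to 0.12). For Timp1 the 5 closest genes lay within 0.12, with log2 fold changes of 1.05 to 1.21 (edgeR, adjusted p from 0.063 to 0.12). Values close to those of the members follow from how these genes were chosen.

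The 5 candidates closest to Mmp9 lay at 0.60 to 0.99, against a median of 3.09 over all candidates. Candidates had to pass the filter that removed Mmp9. Genes that reached about 0.588 CPM in only 2 libraries, as Mmp9 did, could therefore not be matched. Whether a nearer gene exists among them was not examined. The closest candidate was ENSRNOG00000006926, with 0, 0 and 0 counts in controls and 12, 206 and 122 counts in injured replicates 1, 2 and 3. By a separate rule set after the values were seen, 32 genes had at most 3 counts in each control and at least 1 CPM in injured replicates 2 and 3. In 23 of these, Mmp9 included, injured replicate 1 stayed under 1 CPM. Only 13 of the 32 passed the filter and were tested. The rule was modelled on the values of Mmp9, so these counts are a description and test nothing about injured replicate 1.

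**Figure D4:**
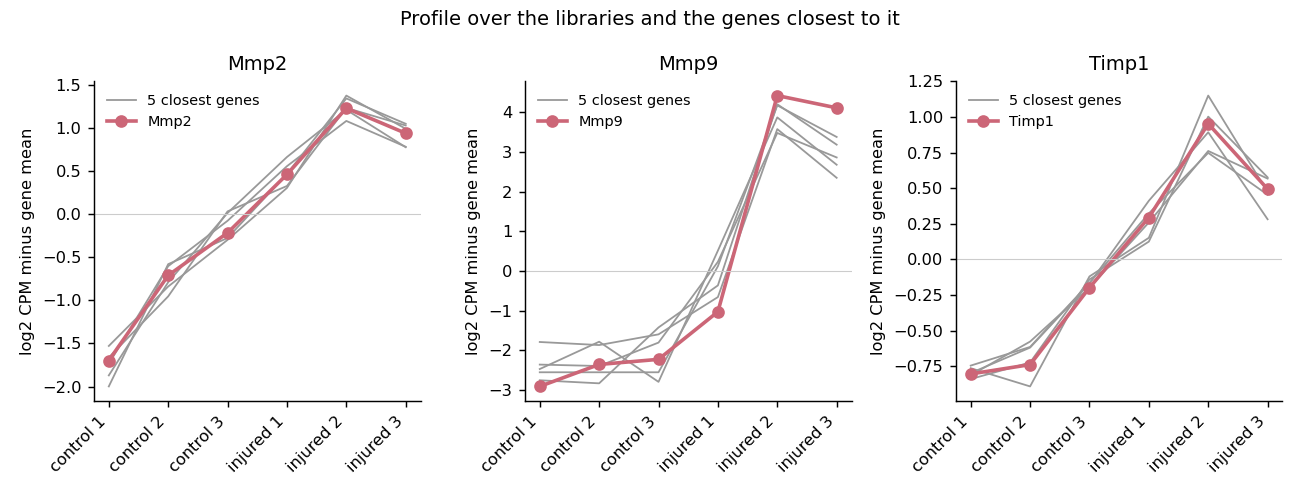
Log2 CPM minus the gene's own mean in each of the 6 libraries for Mmp2, Mmp9 and Timp1 (coloured) and for the 5 tested genes closest to each (grey). Lines join the values of a gene and imply no order of the animals. In Mmp2 and Timp1 the 6 libraries spread out gradually, while in Mmp9 injured replicates 2 and 3 stand far above the rest.

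**Figure D5:**
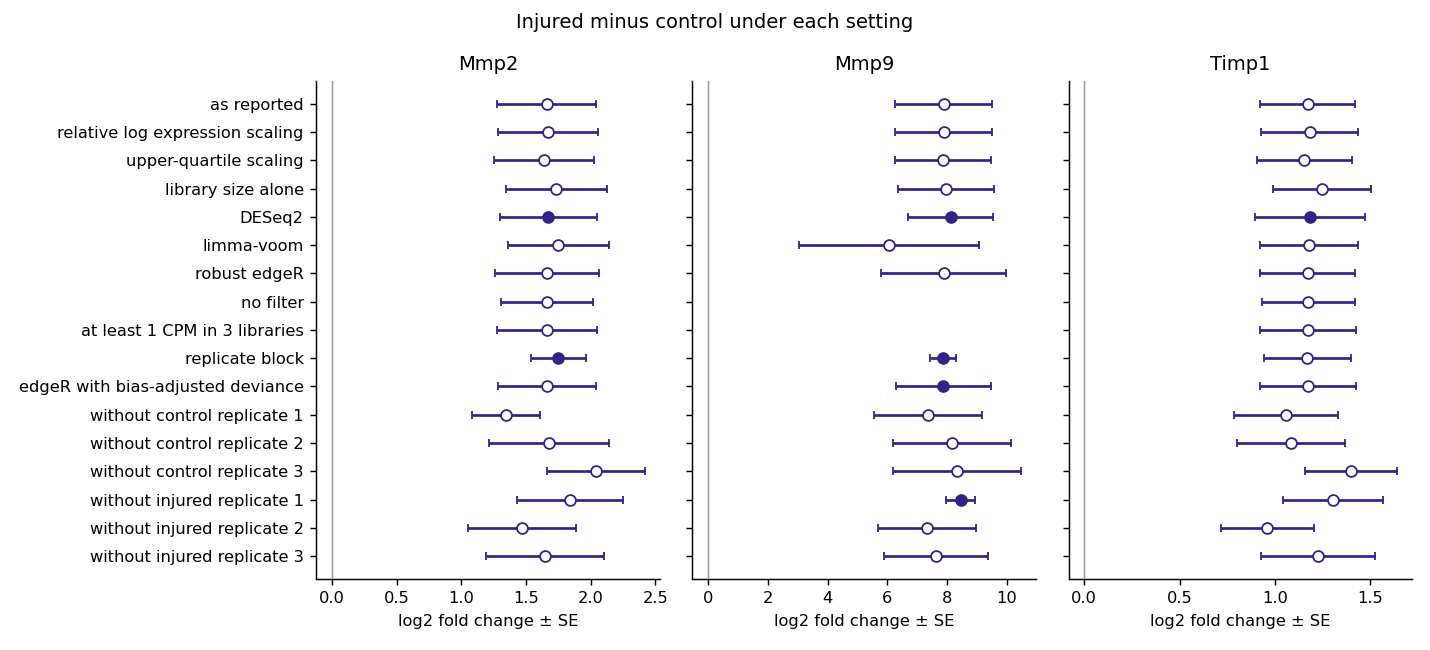
Log2 fold change, injured minus control, with its standard error for Mmp2, Mmp9 and Timp1 as reported and under each alternative. Filled points had an adjusted p under 0.05; all points lie above 0, from 1.35 to 2.04 for Mmp2, 6.07 to 8.46 for Mmp9 and 0.96 to 1.40 for Timp1.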

How the data were processed

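The authors deposited whole-number counts per Ensembl gene with no normalization, 1 column per animal and 0 columns of other samples. Per the submitters' processing notes, reads were handled on the Rnor_6.0 build with tools that include HISAT2 2.2.1 and HTSeq 0.6.1, whose roles are not stated, and also fastp 0.24.1, bcl2fastq 2.20.0.422 and DESeq2 1.50.2. For the annotation, the strand setting and multiply mapped reads, the choice is not given in the sources used here, so overlapping genes could share reads. Members and lists were chosen with earlier results of these data known.

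Here, edgeR 4.0.16 in R 4.3.3 kept genes by filterByExpr (minimum count 10, minimum total 15), scaled libraries by TMM and tested injured against control with the quasi-likelihood F test, with no other covariate. P-values were adjusted by Benjamini-Hochberg over all tested genes and called under 0.05. A standard error is the absolute log2 fold change over the root of the F statistic. Mmp9, which the filter removed, was fitted without it, and 0.5 was added to counts in its ratios because of a count of 0; both were chosen after seeing the data. The test was checked on simulated counts of genes that pass the filter. That check does not cover the fit without a filter used for Mmp9, or the permutation tests. The named genes are the members and, by rule, the closest gene to each of 2 members, since symbols were not paired; for the same reason the gene and marker lists were not used.

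Same-numbered control and injured libraries deviated together (correlations across genes of 0.37, 0.37 and 0.10, the last 0.104 to 3 decimals, all above the limit of 0.1), so the replicate block is given where it changes a call. The pairing comes from the data, not from a label. Correlations between libraries of different number were not computed, so these values cannot show that same-numbered animals belong together. Calls with the block hold only if they do. Alternatives used other scalings and filters, DESeq2 1.42.0, limma-voom (limma 3.58.1), robust edgeR, bias-adjusted deviance and leaving out each library.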

Additional observations from a re-analysis of the deposited data

How the results depend on the processing

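Direction did not change for any member or ratio in any alternative run. Leaving out 1 library gave log2 fold changes of 1.35 to 2.04 for Mmp2, 7.33 to 8.46 for Mmp9 and 0.96 to 1.40 for Timp1, and log2 ratio differences of 0.28 to 0.74 (Mmp2 to Timp1), 4.10 to 6.74 (Mmp9 to Timp1) and 3.58 to 6.09 (Mmp9 to Mmp2). The members passed an adjusted p of 0.05 with DESeq2 (log2 fold changes 1.67, 8.13 and 1.18 for Mmp2, Mmp9 and Timp1), Mmp2 and Mmp9 also with the replicate block (1.75 and 7.87), and Mmp9 with bias-adjusted deviance (7.89, edgeR, adjusted p = 0.046) and without injured replicate 1 (8.46). Adjusted p over the alternatives ran from 0.00037 to 0.28 for Mmp2, 1.75e-06 to 0.35 for Mmp9 and 0.0013 to 0.26 for Timp1. The replicate block did not change the call for Timp1. For the ratios no call was possible with or without it (exact sign-flip p = 0.25, the smallest 3 pairs allow). Over all genes, 103 were higher and 93 lower. DESeq2 called 770 higher and 669 lower, limma-voom 55 higher and 69 lower, and the replicate block 287 higher and 259 lower. Leaving out 1 library gave 2 to 134 higher and 0 to 200 lower. Scaling by library size alone made 65.8% of calls higher. The cause of these shifts was not tested. Mmp9 counts of 0 to 6 in 4 libraries limit its fold change and ratios. A gene that did not pass is not shown to be unchanged.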
